A study of Homo sapiens with 6 samples.

Results

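The mRNA of 10 genes of the cellular response to low oxygen was followed in CUTLL1 cells, a human leukaemia line of the T-cell lineage (T-ALL), after knockdown of the mitotic kinase Aurora B. They are VEGFA, BNIP3, BNIP3L, HIF1A, EGLN1, ANKRD37, KDM3A, P4HA1, ADM and NDRG1, and they make up 10 of the 50868 genes in the deposited table. The genes were taken by name, and the group was put together because VEGFA and BNIP3 were already known to be lower in these libraries. The values of the 10 genes in this contrast are therefore a description and carry no p-value. The shAURKB libraries came from 3 cultures infected with lentivirus carrying an shRNA against AURKB, the gene of that kinase. The shGFP libraries came from 3 cultures given a control shRNA. All 6 cultures are of 1 cell line, grown in the same medium, selected with puromycin and harvested at 48 h, and the design text calls the replicates biological. The oxygen level of the cultures is not given in the sources used here, and no label names a hypoxic exposure.

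Cells sense oxygen through hypoxia-inducible factor (HIF), a transcription factor whose alpha subunit is made continuously and destroyed while oxygen is plentiful. Prolyl hydroxylases of the EGLN family use oxygen to mark the alpha subunit, the VHL ubiquitin ligase then removes it, and when oxygen is short the subunit survives, pairs with ARNT and binds the core of the hypoxia response element. Its targets raise blood supply, glycolysis, mitochondrial clearance, collagen maturation and histone demethylation, and several of them, among them EGLN1 and EGLN3, feed back on HIF itself. HIF activity is set mainly at the protein level, and RNA sequencing measures mRNA alone. VEGFA and DDIT4 are also known targets of the stress factor ATF4, and NDRG1 is known to be repressed by MYC proteins, so membership of the group does not name 1 regulator.

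The core of the hypoxia response element, ACGTG or GCGTG on either strand, was looked up in RefSeq promoters of build GRCh38.p14, because it is the sequence that the genes of the response are known to share. Of the 10 genes, 7 had a promoter in the table used, and all 7 held at least 1 match in the 250 bases before a start site. Counted by promoter, 8 of the 9 listed for these genes held a match, the exception being the second promoter of HIF1A, beside 43.2% of 35114 promoters in the table. The promoters listed for KDM3A overlap and hold the same match, which is thus counted at each of them. BNIP3 held 6 matches, which lay 143 to 104 bases before its start, and ANKRD37 held 3. The other 5 genes held 1 each. A pair of overlapping matches forms the palindrome CACGTG, the E-box bound by MYC and its partners, in BNIP3 and in ANKRD37, against 6.35% of all promoters. A match is a description of the letters and not evidence of binding. The stretch of the BNIP3 promoter outside annotated exons (minus strand, chr10:131982014-131982173) is shown first because it carries the cluster. It is followed by 30-base windows around the matches in ANKRD37 (plus strand, chr4:185396676-185396705), KDM3A (plus strand, chr2:86441332-86441361), EGLN1 (minus strand, chr1:231422288-231422317), P4HA1 (minus strand, chr10:73096936-73096965), HIF1A (plus strand, chr14:61695296-61695325) and ADM (plus strand, chr11:10304959-10304988). Apart from that of HIF1A, these windows lie inside the annotated span of their gene, and those of ANKRD37, EGLN1 and ADM lie wholly in its annotated exons. All are written 5′ to 3′ on the strand of the gene, with the core in capitals.
BNIP3: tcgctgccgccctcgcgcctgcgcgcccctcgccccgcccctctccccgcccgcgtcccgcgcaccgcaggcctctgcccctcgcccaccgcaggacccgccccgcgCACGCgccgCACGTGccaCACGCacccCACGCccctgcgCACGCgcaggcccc
ANKRD37: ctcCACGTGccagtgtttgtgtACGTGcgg
KDM3A: tccgggaggctgtGCGTGtcttgtgagagc
EGLN1: ccgcggggccgtggtgtACGTGcagagcgc
P4HA1: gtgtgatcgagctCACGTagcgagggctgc
HIF1A: ttggctgagagcgGCGTGggctggggtggg
ADM: agagcaggagcgcGCGTGgctgaggaaaga

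The libraries held 10446722 to 11641019 counts in the shAURKB arm and 10154187 to 11922979 counts in the shGFP arm. AURKB mRNA averaged 39.9 ± 3.93 CPM in shAURKB libraries and 101.5 ± 5.1 CPM in shGFP libraries (SD, n = 3 each), where CPM is the read count scaled to the size of its library with TMM factors, with a log2 fold change of -1.35 ± 0.08 (SE, edgeR adjusted p = 2.54e-04). The 9 T-lineage markers all had reads in 1 or more libraries, and 8 had enough to be tested. Their summed levels were 2760 to 2841 CPM in shAURKB libraries and 2493 to 2546 CPM in shGFP libraries (marker sums are over total counts, without TMM). PTCRA had only 1, 3 and 3 reads in shAURKB libraries and 12, 3 and 0 reads in shGFP libraries. NOTCH1 was the marker that added most to the higher sum, while RAG1 differed the other way, with 14.9, 13.8 and 15.8 CPM in shAURKB libraries and 57.9, 49.0 and 54.6 CPM in shGFP libraries, both named after their values were seen. One control library stood apart. Reads found in a single library (5 or more there, 0 in the other 5) marked 120 genes in shGFP replicate 1, and 4 to 10 genes in each of the rest. The 6 fibroblast markers summed to 17.8 CPM there and to at most 0.394 CPM in the other libraries, with COL3A1, DCN, LUM and PDGFRB at 0 throughout, and the 6 epithelial markers summed to 9.31 CPM there and to at most 1.17 CPM elsewhere. No gene of either list had enough reads to be tested. B-cell markers (15.8 to 19.6 CPM in shAURKB and 20.7 to 22.6 CPM in shGFP libraries) rested on CD79A with MS4A1 and PAX5 at 0, and the endothelial list (193.7 to 212.1 CPM over all libraries) rested on PECAM1 with VWF and CDH5 at 0. Summed myeloid markers did not exceed 1.09 CPM in any library, and the 3 erythroid markers were at 0. In bulk RNA, fewer cells of a type and less RNA per cell cannot be told apart.

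Of the 10 genes, 9 had enough reads to enter the fit, and in each of the 9 the estimate was lower with AURKB shRNA. The log2 fold changes (shAURKB over shGFP) ran from -1.85 to -0.18 with a median of -0.38, where the median over all 14818 tested genes was -0.004. In 7 of the 9, every shAURKB library lay below every shGFP library, as was the case for 20.9% of all tested genes, while 21.7% had every shAURKB library above and 42.6% had no overlap either way. At an edgeR adjusted p below 0.05, 5 of the 9 were lower and 0 were higher, beside 10.9% lower, 12.5% higher and 23.3% in either direction over all tested genes. Since the group was picked from this contrast, these counts describe the choice and are read no further. The count of 5 includes HIF1A, which passed in 3 of the 12 alternatives and not with DESeq2, no filter, the replicate block or any library left out. Without 1 library the lower genes over the whole table numbered 998 to 1056 in place of 1609. With upper-quartile scaling the background was 1325 higher and 2087 lower genes in place of 1847 and 1609. The 10 genes together summed to 398.2 to 408.5 CPM in shAURKB libraries and to 524.8 to 535.3 CPM in shGFP libraries.

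**Figure D1:**
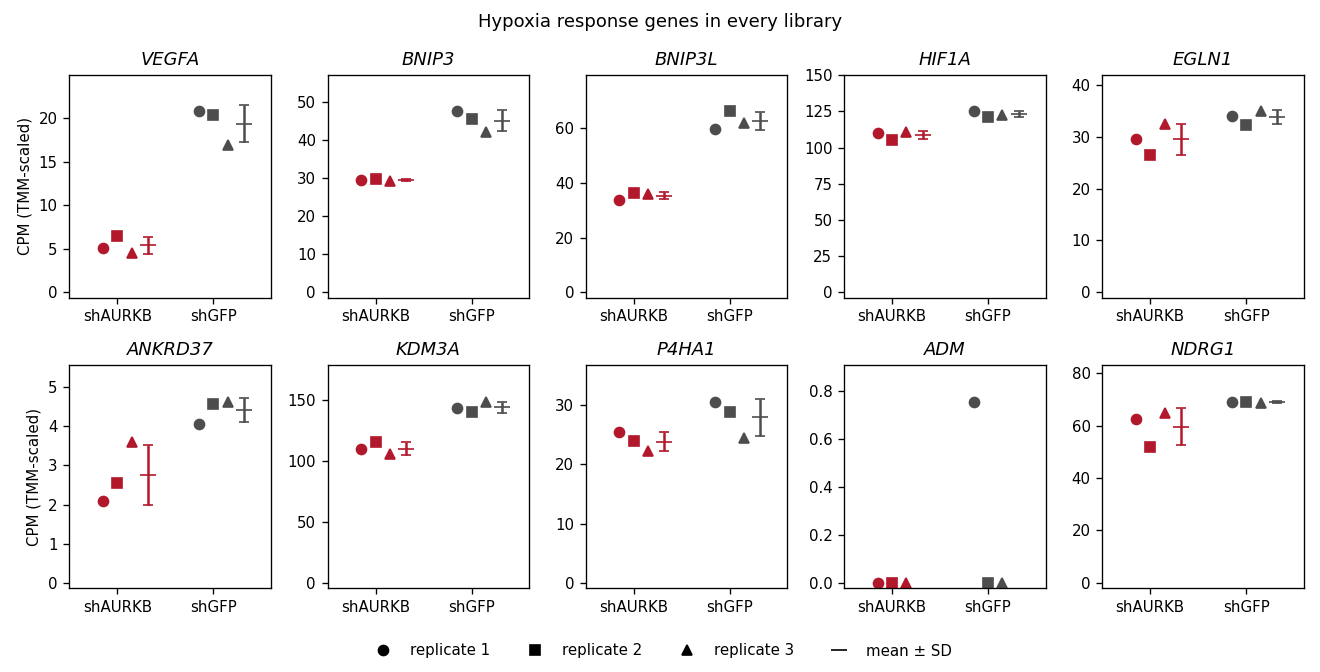
Level of each of the 10 genes in CPM (linear axis from 0, TMM-scaled) in the 3 shAURKB and the 3 shGFP libraries, with symbols for the replicate and bars for mean ± SD. VEGFA, BNIP3, BNIP3L, HIF1A, ANKRD37, KDM3A and NDRG1 show no overlap between the arms, EGLN1 and P4HA1 overlap, and ADM has reads in shGFP replicate 1 alone.

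The secreted factors of the group were VEGFA and ADM. VEGFA encodes the vascular endothelial growth factor that drives new vessel growth (ENSG00000112715, GRCh38 chromosome 6, 43770184 to 43786487, plus strand). It had 58, 66 and 48 reads in shAURKB libraries, against 220, 209 and 205 reads in shGFP libraries. On the scaled level these were 5.08, 6.44 and 4.55 CPM in shAURKB libraries and 20.8, 20.3 and 16.9 CPM in shGFP libraries. The highest shAURKB value lay well below the lowest shGFP value, and the gap between the arms exceeded the spread within either. The log2 fold change of -1.85 ± 0.16 (SE) left 27.7% of the control level, a 3.61-fold difference and the largest of the group. As a description of its place, 48 of all tested genes (0.324%) had an estimate at or below this one, from which nothing is read because VEGFA was used to pick the group. Leaving out each library in turn moved the value between -2.0 and -1.74. The share of the 10 genes' reads that came from VEGFA was 1.25%, 1.62% and 1.11% in shAURKB libraries and 3.88%, 3.84% and 3.23% in shGFP libraries.

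ADM encodes adrenomedullin, a vasodilator peptide that acts through CALCRL with RAMP2 or RAMP3 (ENSG00000148926, chromosome 11, 10304680 to 10307397, plus strand). It had no read in the 3 shAURKB libraries, and 8, 0 and 0 reads in shGFP replicates 1 to 3. All its reads lay in the library that carried the fibroblast and epithelial marker reads, and their part in this value was not tested. A count of 0 allows up to 0.258 to 0.287 CPM in the shAURKB libraries (3 counts over total counts, without TMM, counting error only). ADM did not enter the fit and no fold was taken.

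BNIP3 and BNIP3L encode related receptors on the outer mitochondrial membrane that recruit mitochondria to autophagosomes. BNIP3 (ENSG00000176171, chromosome 10, 131966455 to 131982013, minus strand) is the gene whose promoter cluster is printed above. It measured 29.4, 29.8 and 29.2 CPM in shAURKB libraries and 47.6, 45.6 and 42.0 CPM in shGFP libraries. The shAURKB values, from 336, 306 and 308 reads, were almost level and lay apart from the controls. Their coefficient of variation of 1.09% is smaller than counting error gives at such read numbers and is read no further. The log2 fold change was -0.61 ± 0.07, which left 65.5% of the control level. BNIP3L (ENSG00000104765, chromosome 8, 26382898 to 26505636, plus strand), also called NIX, measured 33.8, 36.3 and 35.8 CPM in shAURKB libraries and 59.9, 66.4 and 62.1 CPM in shGFP libraries. The arms did not overlap, and the log2 fold change of -0.83 ± 0.06 left 56.2%. BNIP3L was the higher of the pair per length, and its ratio to BNIP3 in deposited FPKM was 1.15, 1.21 and 1.23 in shAURKB libraries against 1.26, 1.45 and 1.48 in shGFP libraries. The ratio was thus lower in each shAURKB library, as BNIP3L differed more than BNIP3. The length behind the FPKM was 1.6 times the merged exons (overlapping bases counted once) for BNIP3L and 1.3 times for BNIP3. Per merged length the ratio is therefore higher in every library. PNMA2 overlaps BNIP3L by 951 bases on the opposite strand, with 423, 341 and 343 reads in shAURKB libraries and 541, 454 and 504 reads in shGFP libraries. The strand setting of the counting is not given, so reads from the overlap cannot be assigned.

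**Figure D2:**
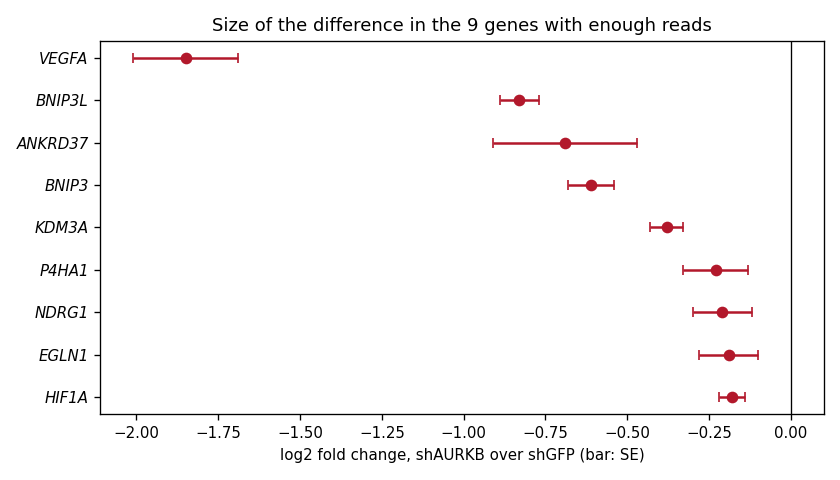
Log2 fold change (shAURKB over shGFP, points) with its SE (bars) for the 9 genes that entered the fit. VEGFA at -1.85 is the lowest, BNIP3L, ANKRD37 and BNIP3 lie between -0.83 and -0.61, KDM3A is at -0.38, and P4HA1, NDRG1, EGLN1 and HIF1A lie between -0.23 and -0.18.

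HIF1A and EGLN1 form the sensing axis itself. HIF1A encodes the regulated alpha subunit (ENSG00000100644, chromosome 14, 61695513 to 61748259, plus strand). It measured 110.1, 105.5 and 110.6 CPM in shAURKB libraries, against 125.3, 121.1 and 122.7 CPM in shGFP libraries. The values in each arm were close together and did not overlap, although the difference was small, with a log2 fold change of -0.18 ± 0.04 that left 88.4% of the control level. EGLN1 encodes PHD2, the main hydroxylase that marks HIF alpha for destruction (ENSG00000135766, chromosome 1, 231363751 to 231425044, minus strand). Its levels were 29.6, 26.5 and 32.5 CPM in shAURKB libraries and 34.1, 32.3 and 35.0 CPM in shGFP libraries. Here shAURKB replicate 3 lay above shGFP replicate 2, so the arms overlapped. The log2 fold change of -0.19 ± 0.09 ran between -0.26 and -0.12 as single libraries were left out.

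ANKRD37 and KDM3A act in the nucleus. ANKRD37 encodes a small ankyrin-repeat protein and is a known direct HIF target (ENSG00000186352, chromosome 4, 185396021 to 185400628, plus strand). It had 24, 26 and 38 reads in shAURKB libraries and 43, 47 and 56 reads in shGFP libraries, the fewest after ADM. The levels of 2.10, 2.54 and 3.60 CPM in shAURKB libraries and 4.06, 4.56 and 4.63 CPM in shGFP libraries did not overlap, but shAURKB replicate 3 came close to the controls. The log2 fold change of -0.69 ± 0.22 was the least precise of the group and was -0.93 without that library and -0.52 without shAURKB replicate 1. ANKRD37 shares 1089 bases with UFSP2 on the opposite strand. KDM3A encodes a demethylase that removes methyl groups from H3K9 and is itself induced by HIF (ENSG00000115548, chromosome 2, 86440647 to 86492716, plus strand). It measured 109.4, 115.5 and 105.3 CPM in shAURKB libraries and 143.2, 139.7 and 148.5 CPM in shGFP libraries. The arms lay clear of each other, and the log2 fold change was -0.38 ± 0.05, or 76.6% of the control level.

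P4HA1 and NDRG1 act in the secretory pathway and the cytoplasm. P4HA1 encodes the catalytic subunit of collagen prolyl hydroxylase in the endoplasmic reticulum (ENSG00000122884, chromosome 10, 73007217 to 73096974, minus strand). Its levels were 25.4, 23.9 and 22.2 CPM in shAURKB libraries and 30.6, 28.8 and 24.5 CPM in shGFP libraries. The lowest control lay inside the shAURKB range, and the log2 fold change was -0.23 ± 0.10. NDRG1 encodes a stress-induced growth regulator (ENSG00000104419, chromosome 8, 133237171 to 133302022, minus strand). It measured 62.6, 51.7 and 64.7 CPM in shAURKB libraries and 69.1, 69.2 and 68.6 CPM in shGFP libraries. Although the arms did not overlap, the log2 fold change of -0.21 ± 0.09 rested in good part on shAURKB replicate 2 and was -0.11 without it.

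Levels of different genes were compared only per length. The length behind the deposited FPKM was found to equal the sum of all distinct annotated exons, overlapping ones counted repeatedly, for 87.2% of 10773 genes (within 1%), and it exceeded the merged exons 1.54-fold at the median. For VEGFA it was 1.92 times the merged exons and for EGLN1 1.05 times. Both scales were therefore read. Levels per kilobase are over total counts, without TMM, and serve to order genes within an arm. The TMM factors were 0.979 to 0.984 in shAURKB libraries and 1.017 to 1.020 in shGFP libraries. Without them, shAURKB levels read slightly lower and shGFP levels slightly higher than on the TMM scale. In CPM per kilobase of merged exons, HIF1A was the highest of the 10 genes in both arms. It averaged 20.7 ± 0.496 in shAURKB libraries and 24.3 ± 0.445 in shGFP libraries (SD, n = 3 each). BNIP3L came next in the controls at 14.8 ± 0.76 and stood clear of KDM3A at 10.9 ± 0.336. In shAURKB libraries BNIP3L averaged 8.03 ± 0.297, beside KDM3A at 8.04 ± 0.393 and P4HA1 at 7.55 ± 0.524, and those 3 could not be ordered because their libraries overlapped. NDRG1, BNIP3 and EGLN1 followed at 5.95 ± 0.686, 5.43 ± 0.0716 and 3.98 ± 0.395 in shAURKB libraries, with NDRG1 and BNIP3 overlapping. In shGFP libraries BNIP3 stood at 8.59 ± 0.547, NDRG1 at 7.13 ± 0.0362 and EGLN1 at 4.72 ± 0.189, where P4HA1 at 9.18 ± 1.04 and BNIP3 overlapped. ANKRD37 and VEGFA were the lowest with reads in both arms, VEGFA at 0.364 ± 0.0668 in shAURKB libraries and 1.36 ± 0.147 in shGFP libraries.

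**Figure D3:**
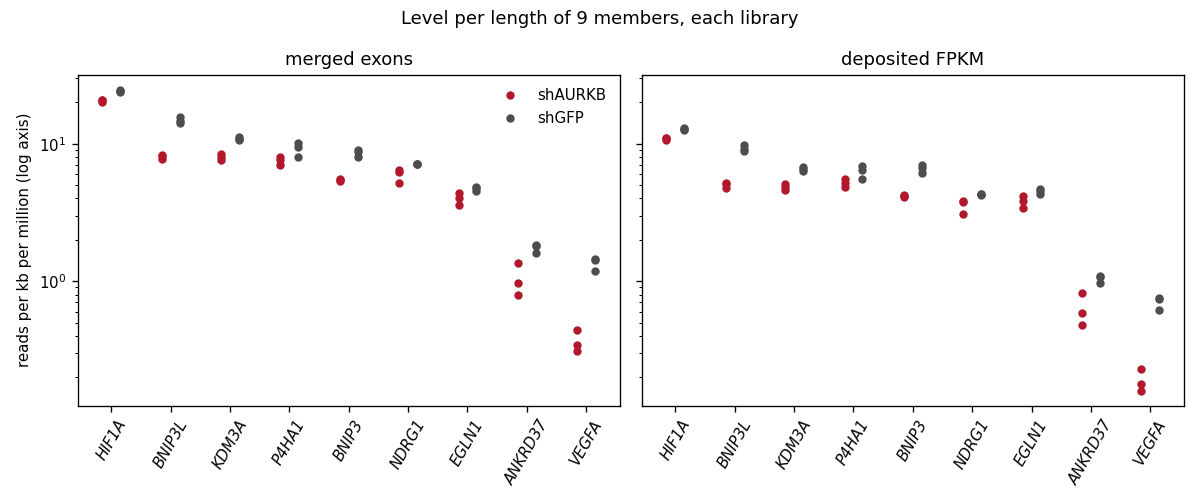
Level in CPM per kilobase (log axis, over total counts, without TMM) of 9 genes in each shAURKB library (left of each pair) and each shGFP library. The length was taken as merged exons (left panel) or as in the deposited FPKM (right panel). HIF1A is the highest and VEGFA the lowest on both scales, and NDRG1 lies above EGLN1 on the merged length in both arms.

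The rest of the pathway was followed in 102 further genes in 8 lists by role, which were chosen with earlier results of these data known. Of these, 73 had enough reads, 10 rose, 13 fell and 50 did not pass the edgeR test. As shares of the 73, 13.7% rose and 17.8% fell, next to 12.5% and 10.9% over all tested genes, and the median log2 fold change was -0.05. In these wider lists 42 of 73 estimates were below 0, beside 7496 of 14818 over all tested genes. Without each library in turn, 8 to 10 of these genes rose and 9 to 12 fell. Over all tested genes, the same fits gave 1271 to 1336 higher and 998 to 1056 lower.

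**Figure D4:**
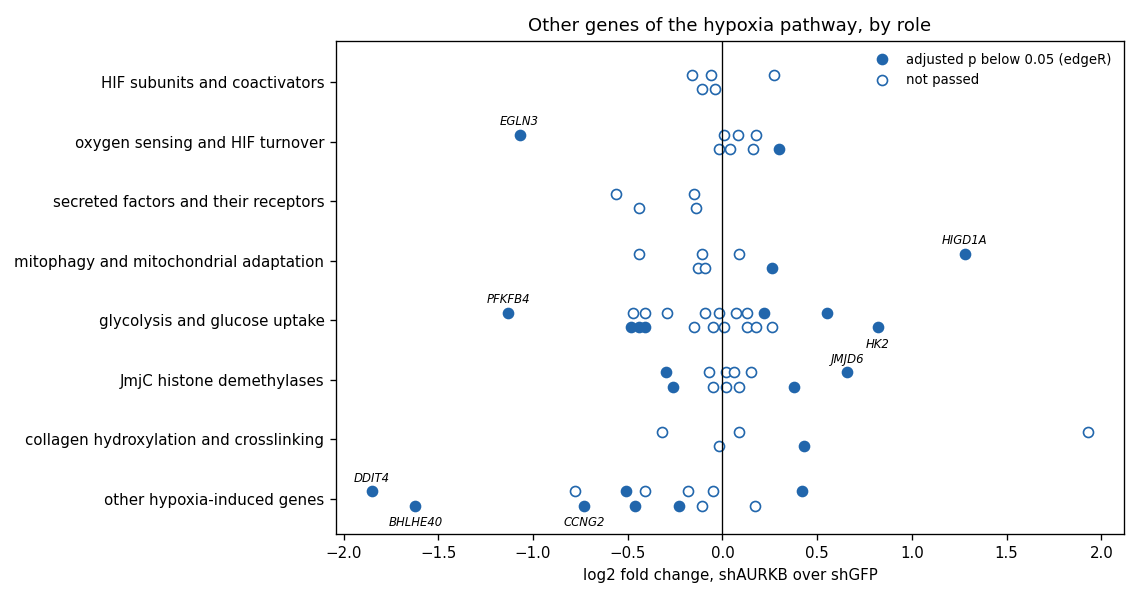
Log2 fold change (shAURKB over shGFP) of the 73 tested genes of the wider pathway in 8 roles, filled where the edgeR adjusted p was below 0.05. DDIT4 at -1.85 and BHLHE40 at -1.62 are the lowest genes that passed, HIGD1A at 1.28 is the highest, and the open point at 1.93 is LOX.

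Of 7 genes for HIF subunits and coactivators, 5 were tested and 0 passed, beside 23.3% in either direction over all tested genes. In 11 of 12 alternatives, 0 of the 5 were called. The exception was upper-quartile scaling, under which EP300, a coactivator gene, passed at an edgeR adjusted p of 0.0291. At the main setting EP300 measured 209.3 ± 5.07 CPM in shAURKB libraries and 225.6 ± 7.29 CPM in shGFP libraries (log2 fold change -0.11 ± 0.04, edgeR adjusted p = 0.0974). All 8 oxygen-sensing and turnover genes were tested, of which 1 rose and 1 fell (12.5% each, beside 12.5% higher and 10.9% lower over all tested genes). EGLN3, a hydroxylase gene that HIF induces, fell to 3.41, 3.02 and 2.18 CPM in shAURKB libraries, against 5.85, 7.38 and 5.04 CPM in shGFP libraries. Its log2 fold change was -1.07 ± 0.23 (edgeR adjusted p = 0.0165), with no overlap between the arms, and it shares 29568 bases of its annotated span with SPTSSA on the same strand (log2 fold change -0.05). ELOB (TCEB2 in the table), which encodes the elongin B subunit of the VHL ligase, rose by 0.30 ± 0.06 (edgeR adjusted p = 0.0152, but 0.05 without shAURKB replicate 2). It measured 52.5 ± 1.06 CPM in shAURKB libraries and 42.8 ± 2.14 CPM in shGFP libraries, and shares 1125 bases with the abundant SRRM2 on the opposite strand.

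Of 17 secreted factors and receptors, 13 had too few reads to be tested. Among them the VEGF receptor gene KDR, the adrenomedullin receptor genes CALCRL and RAMP3, and RAMP1 had no read in any library. RAMP2 had 3 reads in shGFP replicate 2 and 0 in every other library. FLT1, another VEGF receptor gene, named after its values were seen, was tested. It measured 8.56 ± 0.742 CPM in shAURKB libraries and 9.44 ± 0.959 CPM in shGFP libraries (log2 fold change -0.14 ± 0.13, edgeR adjusted p = 0.481). Of the 4 tested, 0 passed at the main setting, beside 23.3% in either direction over all tested genes, and 1 passed with upper-quartile scaling. That was VEGFC, a lymphatic growth factor gene, at 4.0 ± 0.114 CPM in shAURKB libraries and 5.43 ± 0.534 CPM in shGFP libraries (log2 fold change -0.44 ± 0.14, edgeR adjusted p = 0.0665, and 0.0478 with that scaling).

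Of 7 tested genes of mitophagy and mitochondrial adaptation, 2 rose and 0 fell, beside 12.5% higher and 10.9% lower over all tested genes. HIGD1A, which encodes a hypoxia-induced protein of the inner mitochondrial membrane, rose to 93.7, 107.3 and 112.9 CPM in shAURKB libraries, against 43.3, 42.3 and 43.9 CPM in shGFP libraries. Every shAURKB library lay far above every control, and the log2 fold change of 1.28 ± 0.08 was a 2.42-fold rise (edgeR adjusted p = 2.45e-04). The edgeR adjusted p was 3.14e-05 to 0.00673 over the edgeR alternatives, and the DESeq2 adjusted p was 3.65e-30. LONP1, the matrix protease gene, rose by 0.26 ± 0.06 (158.4 ± 10.8 CPM in shAURKB libraries and 132.7 ± 3.8 CPM in shGFP libraries, edgeR adjusted p = 0.0231). That call was lost without shAURKB replicate 2 or 3 (edgeR adjusted p = 0.0698 and 0.069) and without shGFP replicate 1 or 2 (0.0685 and 0.0629). FUNDC1, another mitophagy receptor gene, named after its values were seen, had a log2 fold change of -0.44 ± 0.15 and did not pass (edgeR adjusted p = 0.0789).

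All 20 listed genes of glycolysis and glucose uptake were tested, of which 3 rose and 4 fell (median -0.04), beside 12.5% higher and 10.9% lower over all tested genes. HK2, a hexokinase gene, rose by 0.82 ± 0.06 (87.8 ± 3.86 CPM in shAURKB libraries and 49.8 ± 2.12 CPM in shGFP libraries, edgeR adjusted p = 4.45e-04). The glucose transporter gene SLC2A1 rose by 0.55 ± 0.07 (39.5 ± 2.13 CPM in shAURKB libraries and 26.9 ± 0.714 CPM in shGFP libraries, edgeR adjusted p = 0.0025). PFKFB4, a regulator of glycolytic flux, fell by 1.13 ± 0.26 (edgeR adjusted p = 0.0238), with 2.45, 1.66 and 1.61 CPM in shAURKB libraries and 3.21, 4.08 and 5.29 CPM in shGFP libraries. Its call was lost without shAURKB replicate 2 or 3 (edgeR adjusted p = 0.0782 and 0.0757) and without shGFP replicate 2 or 3 (0.0584 and 0.0697). The remaining calls, named after their values were seen, were a rise of GPI (0.22 ± 0.04) and falls of PDK1 (-0.48 ± 0.06), the transporter gene SLC2A3 (-0.44 ± 0.10) and PFKL (-0.41 ± 0.07). SLC2A3 did not pass without shAURKB replicate 1 or 2 (edgeR adjusted p = 0.0548 and 0.0653) or shGFP replicate 1 or 3 (0.0654 and 0.0614).

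Of 11 tested genes of the JmjC family, to which KDM3A belongs, 2 rose and 2 fell (18.2% each, beside 12.5% higher and 10.9% lower over all tested genes). JMJD6 rose by 0.66 ± 0.07 (57.3 ± 2.01 CPM in shAURKB libraries and 36.4 ± 2.14 CPM in shGFP libraries, edgeR adjusted p = 0.00128). KDM2B, which acts with Polycomb proteins, rose by 0.38 ± 0.05 (edgeR adjusted p = 0.00272) and shares 1527 bases with RNF34 on the opposite strand. KDM6A, an H3K27 demethylase gene, fell by 0.30 ± 0.06 (edgeR adjusted p = 0.0118). KDM4A, named after its values were seen, fell by 0.26 ± 0.06 (edgeR adjusted p = 0.02) but did not pass without any 1 of the libraries other than shGFP replicate 1 (0.0515 to 0.0659). Of the closest relatives of KDM3A, KDM3B and JMJD1C had log2 fold changes of 0.02 ± 0.05 and 0.02 ± 0.09. In collagen maturation 5 of 8 genes were tested, 1 rose and 0 fell, beside the same 12.5% higher and 10.9% lower over all tested genes. PLOD1, a lysyl hydroxylase gene, rose by 0.43 ± 0.09 (36.1 ± 2.48 CPM in shAURKB libraries and 26.8 ± 2.29 CPM in shGFP libraries, edgeR adjusted p = 0.0164). Its call was lost without shAURKB replicate 2 (edgeR adjusted p = 0.051) and without shGFP replicate 2 or 3 (0.0518 and 0.0519).

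The list of other hypoxia-induced genes held 6 of the 13 falls. Of its 13 tested genes, 6 fell (46.2%) and 1 rose (7.69%), beside 10.9% and 12.5% over all tested genes, with a median log2 fold change of -0.41. The list was chosen with results known, so its direction is not independent evidence. DDIT4, which encodes the mTORC1 inhibitor REDD1, fell to 8.32, 8.48 and 7.87 CPM in shAURKB libraries, against 30.2, 28.8 and 30.2 CPM in shGFP libraries. The libraries of each arm were nearly level, and the log2 fold change of -1.85 ± 0.08 was as large as that of VEGFA (edgeR adjusted p = 8.42e-05). An antisense gene, RP11-442H21.2, shares 1066 bases with DDIT4 and had a log2 fold change of -1.83, and their reads cannot be told apart. BHLHE40, the transcriptional repressor gene also called DEC1, fell to 3.68, 2.15 and 3.03 CPM in shAURKB libraries, against 9.72, 7.38 and 10.2 CPM in shGFP libraries (log2 fold change -1.62 ± 0.23, edgeR adjusted p = 0.00393). CCNG2, the cyclin G2 gene, fell by 0.73 ± 0.20 (edgeR adjusted p = 0.0401), with 25.8, 22.8 and 25.8 CPM in shAURKB libraries and 28.1, 48.4 and 47.2 CPM in shGFP libraries. The control that stood apart, shGFP replicate 1, was also the low one here, and the fall was 0.94 without it. The CCNG2 call was lost when any other library was left out (edgeR adjusted p = 0.0903 to 0.117). Falls named after their values were seen were those of ZNF395 (-0.51 ± 0.06), RORA (-0.46 ± 0.08) and CXCR4 (-0.23 ± 0.04), and the rise was that of TFRC, the transferrin receptor gene (0.42 ± 0.03).

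The genes with profiles most like VEGFA and BNIP3 were sought among 11289 genes with a mean of at least 5 CPM. Likeness was the root mean square difference of centred log2 CPM over the 6 libraries, so it follows the arms by construction. The nearest to VEGFA were RAG2, a recombinase gene (0.130), ULBP1, a ligand gene of the NKG2D receptor (0.131), and SLC6A9, a glycine transporter gene (0.142), whose log2 fold changes were -1.98, -1.92 and -1.94. The nearest to BNIP3 were RP11-1277A3.1 (0.029), FAM45A (0.033) and DMC1, a meiotic recombinase gene (0.036), with log2 fold changes of -0.66, -0.58 and -0.60. None of the 6 belongs to the hypoxia lists.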

How the data were processed

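RNA of 6 CUTLL1 cultures was analysed, grouped by sample title. The authors deposited raw read counts (whole numbers) for 50868 Ensembl genes. They also deposited FPKM values, which were a gene's count over a fixed length and the depth of its library in the 10804 genes checked (relative deviation at most 1.18e-05). HISAT2 2.0.4, StringTie 1.3.0, edgeR and GRCh38 (hg38) are named, per the submitters' processing notes. The sources used here do not give their roles, the strand setting or the treatment of multi-mapped reads. Library totals ran from 10154187 to 11922979 counts. All 10 genes had the same position in GENCODE 29.

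Genes with few reads were removed by filterByExpr (at least 10 reads, total of at least 15), and the rest were scaled by TMM and compared by the quasi-likelihood test of edgeR 4.0.16 (R 4.3.3), two-sided, on the shRNA alone, with Benjamini-Hochberg adjustment over 14818 genes and a threshold of 0.05. The SE is the log2 fold change divided by the square root of F. Floors cover counting error only, and no molecular identifiers are named. The SD and SE values take in the spread between libraries as well. Replicates differed beyond sampling noise (chi-square 6.92 to 7.91 per degree of freedom). The tests were checked on simulated counts with known changes, where signs were recovered but the share of false calls lay above the nominal threshold for edgeR and DESeq2. The members and lists were chosen with earlier results of these data known. Named were the 10 genes, AURKB, the 3 called genes with the largest change per list (where none was called, the gene with the smallest p) and the 3 nearest profiles to VEGFA and to BNIP3. The alternatives were other scalings (upper-quartile, RLE), DESeq2 1.42.0, other filters (none, or 1 CPM in at least 3 libraries), a replicate block and leaving out each library. Merged exon lengths were added after the data were seen.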

Additional observations from a re-analysis of the deposited data

How the results depend on the processing

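All 9 fitted genes of the group kept an estimate below 0 in each of the 12 alternatives, with 4 or 5 of them lower at the threshold and 0 higher. Where 5 passed they were those of the main setting, except without shAURKB replicate 3, where ANKRD37 passed and HIF1A did not. Over all tested genes, 50.6% of estimates were below 0 at the main setting. Lower calls there ran from 998 of 15158 genes without shAURKB replicate 3 to 2087 of 14818 with upper-quartile scaling. Since the group was picked from this contrast, its counts remain a description. The median over the group was -0.49 with no filter on low counts, where ADM was fitted too, against -0.38. Upper-quartile scaling lowered the median of all genes to -0.058, and HIF1A was at -0.23 under it. The number of lower genes over the whole table, 1609, was 998 to 1056 when single libraries were left out and fewer samples were compared. The replicate number paired no libraries (correlations of same-numbered libraries -0.0914, -0.0675 and -0.0443 over 9891 genes). With it as a block 1027 genes were lower, and PFKFB4, PLOD1, CCNG2 and KDM4A did not pass (edgeR adjusted p = 0.0701, 0.0545, 0.0745 and 0.0574). Of the 23 calls in the wider lists, 16 to 21 were kept without 1 library. With merged exon lengths, chosen after seeing the data, 5 genes took another rank in each arm. All 7 genes in the promoter table kept a core match at 1 or more promoters in the longer window and with CACGTG matches left out. Depth limits ANKRD37, with 24 to 56 reads a library, and ADM.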

Other observations

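Several hypoxia-induced genes had few reads. AK4, a mitochondrial adenylate kinase gene that HIF is known to induce, had 0, 0 and 0 reads in shAURKB libraries and 7, 11 and 6 reads in shGFP libraries. NDUFA4L2, a HIF-induced subunit gene of the respiratory chain, had 3, 1 and 0 reads in shAURKB libraries and 7, 4 and 6 reads in shGFP libraries. LOX, the collagen crosslinking oxidase gene, had 15, 12 and 11 reads in shAURKB libraries and 2, 0 and 8 reads in shGFP libraries, with a log2 fold change of 1.93 ± 0.66 that did not pass (edgeR adjusted p = 0.077), except without shGFP replicate 3. AK4 passed when no filter on low counts was used. The classical hypoxia markers CA9 and CA12 had at most 1 read in any library.

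ADM shared its pattern with another gene of the lists. KDM5B, an H3K4 demethylase gene, had 40 reads in shGFP replicate 1 and 0 in each of the other 5 libraries. In that same library LOXL2 had 88 reads, against 38 to 47 elsewhere. COL1A2 had 185 reads there and at most 3 elsewhere, and their part in these values was not tested.

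The deposited FPKM understate the level of genes with many annotated exons that overlap. The length behind the FPKM of ADM was 3.30 times its merged exons, and that of BNIP3 was 1.3 times. Fold changes within a gene are not touched by this, while an order between genes is.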
